A study of Homo sapiens with 6 samples.

Results

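The nuclear receptors examined here are 36 genes, taken by symbol from an RNA-seq table of TFK1 cells that lists 23569 genes. Of these 36 receptors, 35 had a row in the table. They comprise the retinoid, thyroid hormone, vitamin D and steroid receptors, the metabolic sensors of bile acids, oxysterols, fatty acids and xenobiotics, and the orphan receptors. TFK1 is a human cholangiocarcinoma line, derived from a tumor of the bile ducts outside the liver. The 6 libraries comprised 3 negative control libraries (oeNC) and 3 libraries of cells overexpressing STUB1 (oeSTUB1), an E3 ubiquitin ligase that works with heat shock chaperones. The coding sequence of STUB1 was carried by a lentiviral pHAGE vector into TFK1 cells, which were then selected with puromycin. The labels give no further detail of the negative control. The series was made to search for tumor suppressor genes under the control of STUB1, UHRF1 and DNMT1. As far as the text tells, each group was 1 stable population, so differences between the populations cannot be told apart from STUB1 overexpression. Nothing states that replicates came from separate cultures, and the p-values therefore measure the spread between these libraries, which may be technical.

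Nuclear receptors are transcription factors that bind DNA through a zinc finger domain and, in many members, a small lipophilic ligand through a separate pocket. Retinoic acid, thyroid hormone and vitamin D receptors, and the sensors of bile acids, oxysterols and fatty acids, bind DNA with a retinoid X receptor (RXR) as partner, whereas steroid receptors bind as homodimers and several orphan receptors as monomers. In the biliary tree and liver the bile acid receptor FXR (NR1H4), its corepressor partner SHP (NR0B2) and LRH-1 (NR5A2) are best known for the control of bile acid synthesis and transport. STUB1 is known to act on client proteins of chaperones, among them steroid receptors, but RNA alone was measured here and receptor protein was not.

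The values are FPKM, fragments per kilobase of gene length and scaled to all fragments counted in the library, so levels can be set side by side between genes only as far as the gene lengths used were right. Library totals recovered from the steps of the FPKM values lay between 33106564 and 36744521 fragments. STUB1 itself stood at 32.9, 33.0 and 30.9 FPKM in oeNC replicates 1, 2 and 3 and at 61.4, 75.0 and 61.9 FPKM in oeSTUB1 replicates 1, 2 and 3, a log2 fold change of 1.03 (SE 0.097, adjusted p = 0.00064 by limma). Of the 8 markers of biliary and simple epithelium, KRT8, KRT18 and KRT7 were among the most abundant, at 482 to 4063 FPKM in oeNC. KRT19, a defining bile duct keratin, was low, at 0.374 to 0.529 FPKM in oeNC and 2.51 to 3.41 FPKM in oeSTUB1. The summed level of these markers was 7508 to 8064 FPKM in oeNC and 4784 to 6336 FPKM in oeSTUB1, with 1 marker higher and 4 lower. Defining hepatocyte (ALB, APOA1, APOB) and endothelial (VWF, CDH5, KDR) genes were below 0.1 FPKM in every library. The 8 hepatocyte markers summed to 1.71 to 1.86 FPKM in oeNC and 1.27 to 1.7 in oeSTUB1, and the 4 endothelial markers to 0.0713 to 0.0973 and 0.0974 to 0.231. The 8 fibroblast markers summed to 1.31 to 2.36 FPKM in oeNC and 2.16 to 4.05 in oeSTUB1. COL1A1 made up most of that sum, at 1.07 to 1.95 and 1.93 to 3.68 FPKM, COL1A2, DCN, PDGFRA and PDGFRB were below 0.1 FPKM in every library, and neither of the 2 tested fibroblast markers passed the test by limma. COL3A1 and THY1, too low to be tested, were higher in every oeSTUB1 library than in any oeNC library, at no more than 0.105 and 0.104 FPKM. LUM went the other way, at 0.143 to 0.313 FPKM in oeNC and 0.0219 to 0.124 FPKM in oeSTUB1 (adjusted p = 0.083 by limma). The part of these markers in the receptor results was not tested. The 6 immune markers summed to 32.3 to 34.7 FPKM in oeNC and 25.8 to 26.5 in oeSTUB1, of which CD68, at 19.1 to 27.7 FPKM in each library, made up most. Library oeSTUB1 replicate 2 stood apart from the other 2 of its group. The chi-square per degree of freedom between fragment numbers was 76.7 and 71.1 against replicates 1 and 3, compared with 3.37 to 9.82 for every other pair of one group, and its deviation from the group mean fell with gene length (Spearman's rho -0.56 across 15353 genes, which are not independent replicates).

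Of the 36 receptors, 27 were expressed, meaning a mean of at least 1 FPKM in 1 group or both, and 3 were low (0.1 to below 1 FPKM). Another 5 were not expressed (a mean below 0.1 FPKM in both groups) and 1, the xenobiotic sensor CAR (NR1I3), had no row. The receptors not expressed were SHP (NR0B2), the pregnane X receptor PXR (NR1I2), estrogen receptor alpha (ESR1), estrogen-related receptor gamma (ESRRG) and the orphan receptor RORA. NR0B2 was found as 1 fragment in oeNC replicate 2 and none in the other 5 libraries, where the 3 fragments that a count of 0 allows would be worth 0.0507 to 0.0562 FPKM. NR1I2 was likewise found as 1 fragment, in oeSTUB1 replicate 2, with a limit of 0.0277 to 0.0308 FPKM from 3 fragments. For both genes the gene length was taken as the shortest that gives whole fragment numbers, so these numbers may be understated. For NR1I2 it was 2943 bases, where GENCODE release 29 has 5381 exonic bases. With a longer gene the fragments would be more and the limit lower. For ESR1, 3 fragments were found over all 6 libraries, at most 1 in each. These limits cover counting error only. ESRRG and RORA were above that limit at 8 to 18 and 16 to 29 fragments per library, and neither passed 0.0339 FPKM. The low receptors were the mineralocorticoid receptor NR3C2, at 0.0998 to 0.366 FPKM over the 6 libraries, the immediate early receptor NR4A3, at 0.297 to 0.489 FPKM, and the germ cell nuclear factor NR6A1, at 0.477 to 0.932 FPKM.

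**Figure D1:**
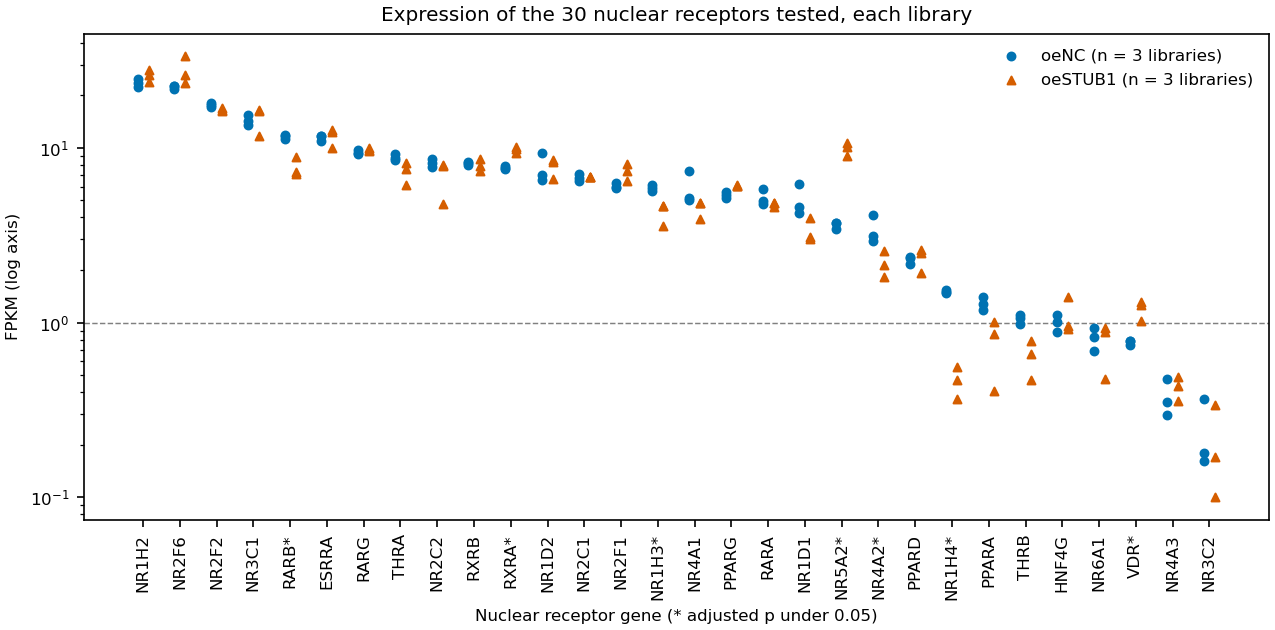
Level of each of the 30 tested receptors in every library, in FPKM on a log axis, ordered by the oeNC mean (circles, 3 oeNC libraries; triangles, 3 oeSTUB1 libraries; dashed line, 1 FPKM). NR1H2 and NR2F6 lie above 20 FPKM in all 6 libraries, and the triangles of NR5A2 lie above and those of NR1H4 below their circles.

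The 30 receptors with a mean of at least 0.1 FPKM over the 6 libraries were tested with all other genes of that level. The receptors together summed to 203 to 216 FPKM in oeNC libraries and to 206 to 219 FPKM in oeSTUB1 libraries, ranges that overlap. At an adjusted p-value under 0.05 by limma, 3 receptors rose in oeSTUB1 (NR5A2, VDR and RXRA), where 7.01% of all 15353 tested genes were higher. In the other direction 4 receptors fell (NR1H4, NR4A2, RARB and NR1H3), where 6.59% of all genes were lower. With a log2 fold change beyond 1 in addition, 1 receptor was higher (NR5A2) and 1 lower (NR1H4), beside 2.79% and 2.4% of all tested genes. The 3 values of one group lay all on one side of the other 3 in 16 of 30 receptors, 6 higher and 10 lower, which compares with 38.8% of all genes. The median log2 fold change was -0.01 over the 30 receptors, 15 of which were positive and 15 negative, and 0.02 over all genes.

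**Figure D2:**
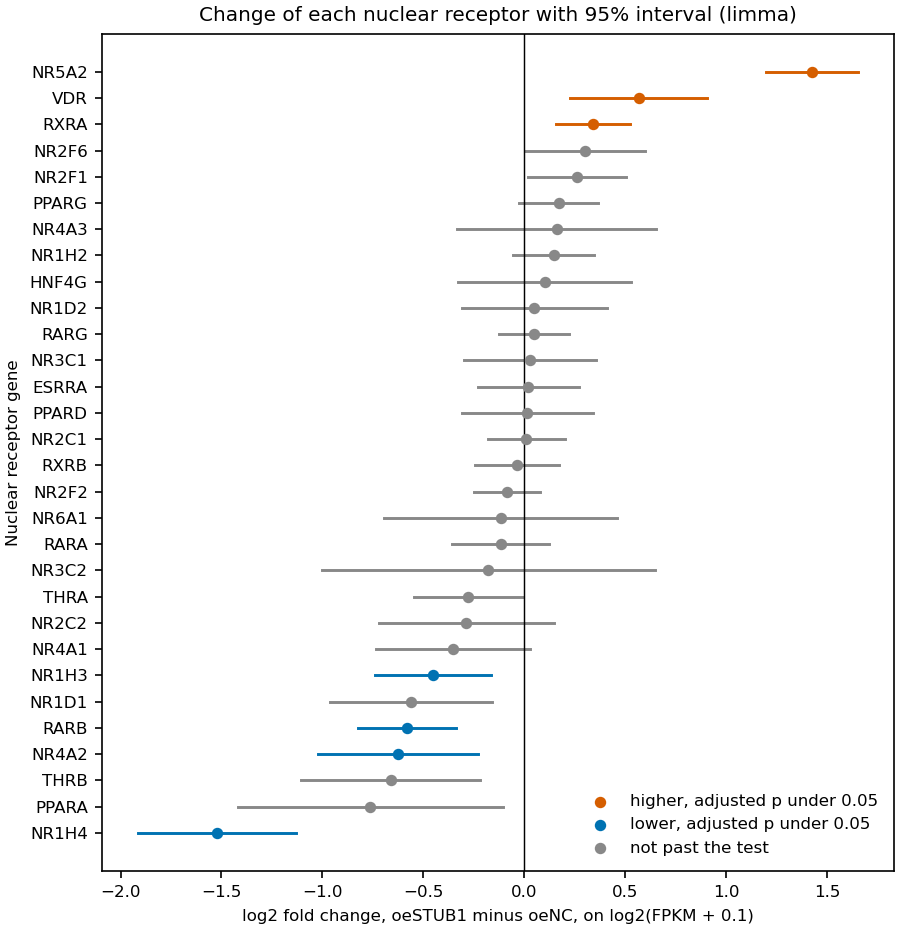
Log2 fold change of oeSTUB1 against oeNC on log2(FPKM + 0.1) for the 30 tested receptors, with the 95% interval from limma as a bar; color marks the receptors with an adjusted p under 0.05. NR5A2 (1.42) and NR1H4 (-1.52) lie farthest from 0 on either side, and the intervals of most other receptors reach 0.

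NR5A2 (LRH-1) is an orphan receptor that binds DNA as a monomer and switches on genes of bile acid and steroid synthesis. It stood at 3.74, 3.71 and 3.44 FPKM in oeNC replicates 1, 2 and 3 and at 10.7, 9.0 and 10.1 FPKM in oeSTUB1 replicates 1, 2 and 3. Every oeSTUB1 library lay well above every oeNC library. The mean went from 3.63 ± 0.166 to 9.92 ± 0.851 FPKM (SD, n = 3 each), 2.73-fold, with a log2 fold change of 1.42 (SE 0.098, 95% interval 1.20 to 1.65, adjusted p = 0.00018 by limma). NR5A2 was the 20th of the 30 receptors by mean level in oeNC and the 6th in oeSTUB1.

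NR1H4 (FXR), the nuclear bile acid receptor, went the other way. It stood at 1.49, 1.48 and 1.53 FPKM in the oeNC libraries, from 241, 239 and 262 fragments, and at 0.468, 0.364 and 0.560 FPKM in the oeSTUB1 libraries, from 75, 56 and 89 fragments. The oeNC libraries were nearly equal and all above the oeSTUB1 libraries. The mean fell from 1.5 ± 0.0267 to 0.464 ± 0.0982 FPKM, 3.24-fold, with a log2 fold change of -1.52 (SE 0.17, 95% interval -1.91 to -1.13, adjusted p = 0.0012 by limma). The level of NR5A2 was 2.24 to 2.50 times that of NR1H4 in each oeNC library and 18 to 24.8 times in each oeSTUB1 library, a pair chosen after its values were seen. With a pseudocount of 1 the log2 fold change of NR1H4 was -0.78, and it then no longer passed a 2-fold minimum. SHP (NR0B2), the third receptor of the bile acid circuit, was not expressed in either group.

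Among the retinoid receptors, RARB, a retinoic acid receptor that is itself a textbook retinoic acid target, fell, while RARG and RARA, its sister isotypes, did not pass the test. RARB stood at 11.7, 11.8 and 11.3 FPKM in oeNC and at 8.89, 7.31 and 7.06 FPKM in oeSTUB1. No oeSTUB1 library reached an oeNC library, and oeSTUB1 replicate 1 was the highest of its group. The mean was 11.6 ± 0.283 and 7.76 ± 0.989 FPKM, a log2 fold change of -0.58 (SE 0.10, 95% interval -0.82 to -0.34, adjusted p = 0.010 by limma). The call was lost without oeNC replicate 1 (adjusted p = 0.055 by limma) and without oeNC replicate 2 (adjusted p = 0.057 by limma). RARG, at 9.26 to 9.76 FPKM in oeNC and 9.59 to 9.93 FPKM in oeSTUB1, overlapped between groups, and its 95% interval for the log2 fold change ran from -0.13 to 0.22. RARA stood at 4.76 to 5.83 FPKM in oeNC and 4.61 to 4.84 FPKM in oeSTUB1, with an interval of -0.36 to 0.12. The level of RARB relative to RARG was 1.20 to 1.27 in the oeNC libraries and 0.711 to 0.927 in the oeSTUB1 libraries.

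The promoters of NR5A2, RARB and NR1H4 are shown because these 3 genes kept their calls under the most processing settings, and because half-sites for nuclear receptors and CpG dinucleotides can be read in them directly. Each sequence is the 250 bases before the first transcription start that RefSeq lists (assembly GRCh38.p14), on the strand of the gene. Capitals mark hexamer half-sites, AGGTCA with the variants AGTTCA and GGGTCA and GGTTCA, on either strand.
NR5A2, chr1:200027460-200027709, plus strand: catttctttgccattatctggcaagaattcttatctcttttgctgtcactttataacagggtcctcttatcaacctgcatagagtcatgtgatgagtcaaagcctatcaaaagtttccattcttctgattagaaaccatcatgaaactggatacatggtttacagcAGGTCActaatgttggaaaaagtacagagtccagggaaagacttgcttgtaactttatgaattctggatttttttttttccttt
RARB, chr3:25428013-25428262, plus strand: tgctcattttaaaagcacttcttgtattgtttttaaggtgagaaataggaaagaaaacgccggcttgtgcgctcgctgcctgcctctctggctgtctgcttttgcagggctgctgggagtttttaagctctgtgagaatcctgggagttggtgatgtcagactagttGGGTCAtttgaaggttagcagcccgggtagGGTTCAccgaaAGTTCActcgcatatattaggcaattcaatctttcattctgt
NR1H4, chr12:100503110-100503359, plus strand: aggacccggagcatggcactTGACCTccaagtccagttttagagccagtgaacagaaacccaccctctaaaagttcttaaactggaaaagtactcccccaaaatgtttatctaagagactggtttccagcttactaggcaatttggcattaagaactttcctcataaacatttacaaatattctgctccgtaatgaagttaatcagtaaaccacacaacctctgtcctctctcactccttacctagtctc

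In the RARB window a pair of half-sites on the same strand lies from 53 to 37 bases before the start with a gap of 5 bases, the arrangement known as a retinoic acid response element. Of the 36 receptors, 31 had a promoter in the table, and RARB was the 1 member with such a direct repeat (same strand, gap of 1 to 5 bases), which 0.33% of 27305 promoters hold. At least 1 half-site was found in 12 of the 31 receptor promoters and in 34.0% of all promoters. NR1H4 and NR5A2 each hold 1 AGGTCA half-site, on the minus strand in NR1H4, a hexamer found in 12.1% of promoters. The median number of CpG dinucleotides in the window was 13 over the 31 receptors, 17 over the 23 expressed ones and 11 over all promoters. Among the 5 called receptors with a promoter it ranged from 0 (NR5A2) to 59 (RXRA). A match of letters is a description and shows neither binding nor use of that start, and RefSeq lists 4 starts for RARB and 2 for NR5A2.

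RXRA, the shared partner of many of these receptors, stood at 7.92, 7.65 and 7.60 FPKM in oeNC and at 9.90, 9.31 and 10.2 FPKM in oeSTUB1. The lowest oeSTUB1 library was above the highest oeNC library. The log2 fold change was 0.34 (SE 0.080, 95% interval 0.15 to 0.52, adjusted p = 0.030 by limma). RXRB, the other expressed RXR isotype, overlapped at 7.94 to 8.32 FPKM in oeNC and 7.37 to 8.65 FPKM in oeSTUB1 (95% interval of the log2 fold change -0.24 to 0.17). RXRA was slightly below RXRB in each oeNC library, at a ratio of 0.913 to 0.998, and above it in each oeSTUB1 library, at 1.08 to 1.38. The 554 tested genes of chromosome 9, on which RXRA lies, had a median log2 fold change of 0.16, and the part of this shift in the RXRA value was not tested. The call for RXRA was lost with any single library left out other than oeSTUB1 replicate 2, with adjusted p between 0.076 and 0.14 by limma.

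VDR, the vitamin D receptor, stood at 0.743, 0.789 and 0.786 FPKM in oeNC (133, 141 and 149 fragments) and at 1.31, 1.03 and 1.26 FPKM in oeSTUB1 (232, 175 and 222 fragments). The groups did not overlap, and oeSTUB1 replicate 2 was the lowest of its group. The mean rose from 0.773 ± 0.0257 to 1.20 ± 0.151 FPKM, a log2 fold change of 0.56 (SE 0.15, 95% interval 0.23 to 0.90, adjusted p = 0.041 by limma). Without any single library other than oeSTUB1 replicate 2 the call was lost, with an adjusted p of 0.11 to 0.15 by limma.

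Of the oxysterol receptors, NR1H3 (LXR alpha) fell and NR1H2 (LXR beta), the most abundant receptor in oeNC, did not pass the test. NR1H3 stood at 5.87, 5.68 and 6.13 FPKM in oeNC and at 3.57, 4.67 and 4.68 FPKM in oeSTUB1. All oeNC libraries were higher, and oeSTUB1 replicate 1 was the lowest. The log2 fold change was -0.45 (SE 0.12, 95% interval -0.74 to -0.17, adjusted p = 0.049 by limma). NR1H2 stood at 24.8, 22.2 and 23.5 FPKM in oeNC and at 23.9, 27.8 and 26.3 FPKM in oeSTUB1, overlapping, with an interval of -0.06 to 0.35. The level of NR1H2 was 3.83 to 4.22 times that of NR1H3 in oeNC libraries and 5.62 to 6.68 times in oeSTUB1 libraries. NR1H3 shares 189 exonic bases with ACP2 in antisense orientation, and the strand setting of the counting is not given in the sources used here. The NR1H3 call was lost without each of 5 single libraries, all but oeSTUB1 replicate 2, with adjusted p of 0.063 to 0.16 by limma.

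NR4A2 (NURR1) belongs to the NR4A receptors, which are induced within minutes to hours as immediate early genes. It stood at 2.95, 3.13 and 4.13 FPKM in oeNC and at 2.13, 1.82 and 2.56 FPKM in oeSTUB1. The groups did not overlap, with oeNC replicate 3 the highest. The log2 fold change was -0.62 (SE 0.17, 95% interval -1.02 to -0.23, adjusted p = 0.0499 by limma), at the edge of the threshold. The call was lost with any oeNC library or oeSTUB1 replicate 1 left out, with adjusted p between 0.086 and 0.16 by limma. The 938 tested genes of chromosome 2, where NR4A2 lies, had a median log2 fold change of -0.20, whose part in this value was not tested. NR4A1 (NUR77) stood at 5.20, 5.04 and 7.37 FPKM in oeNC and 3.91, 4.84 and 4.82 FPKM in oeSTUB1, and did not pass the test (log2 fold change -0.35, adjusted p = 0.20 by limma). The highest value of both NR4A1 and NR4A2, and of NR4A3 in oeNC, was in oeNC replicate 3.

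**Figure D3:**
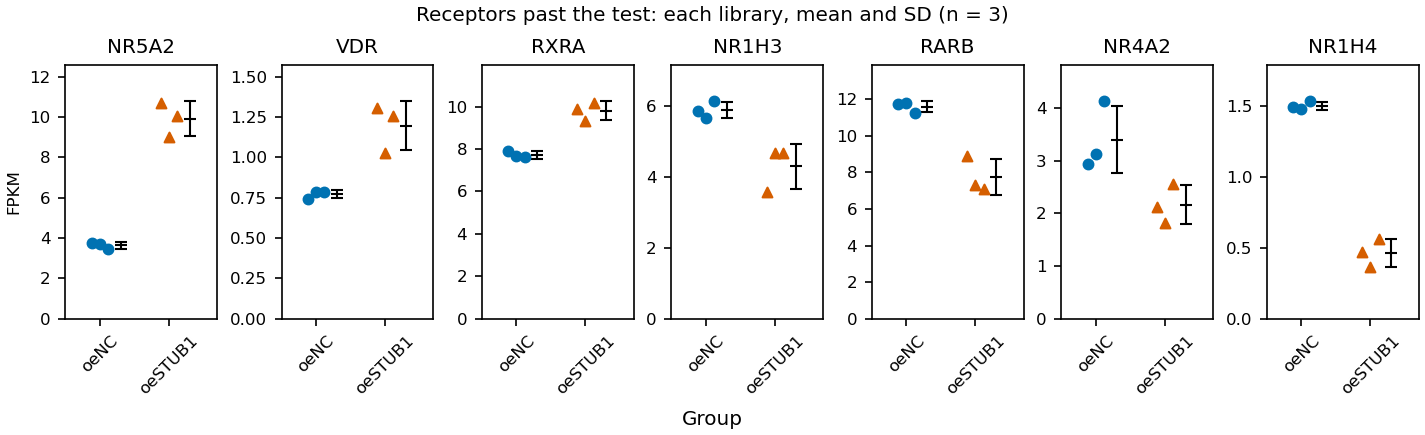
FPKM of the 7 receptors past the test in each library, oeNC as circles and oeSTUB1 as triangles, with the mean and SD of 3 libraries as a bar beside them and a separate axis from 0 for each gene. In each panel the 3 triangles lie entirely above (NR5A2, VDR, RXRA) or below (NR1H3, RARB, NR4A2, NR1H4) the 3 circles.

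The 6 most abundant receptors that did not pass the test were NR2F6, NR1H2, NR2F2, NR3C1, ESRRA and RARG. NR2F6 (EAR2), an orphan repressor of the COUP-TF group, stood at 21.9, 22.5 and 22.6 FPKM in oeNC and at 23.5, 33.6 and 26.3 FPKM in oeSTUB1, with oeSTUB1 replicate 2 far above the rest (log2 fold change 0.30, adjusted p = 0.17 by limma). NR2F2 (COUP-TFII), another repressor of that group, stood at 17.2, 18 and 17.7 FPKM in oeNC and at 16.2, 16.5 and 17.0 FPKM in oeSTUB1, all lower by a small margin. The 95% interval of its log2 fold change ran from -0.25 to 0.08. NR3C1, the glucocorticoid receptor, stood at 13.5, 14.3 and 15.4 FPKM in oeNC and at 16.3, 11.7 and 16.5 FPKM in oeSTUB1, and its groups overlapped (interval -0.30 to 0.36). Its level depends on the gene length behind the FPKM, which was 20396 bases where GENCODE release 29 has 9172 exonic bases. ESRRA, an orphan receptor of mitochondrial genes, stood at 11.7, 11.0 and 11.8 FPKM in oeNC and at 9.99, 12.4 and 12.7 FPKM in oeSTUB1 (interval -0.23 to 0.27).

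Several receptors had all oeSTUB1 values on one side of the oeNC values without passing the test. THRB (thyroid hormone receptor beta) stood at 0.987, 1.10 and 1.07 FPKM in oeNC and at 0.787, 0.467 and 0.661 FPKM in oeSTUB1 (log2 fold change -0.66, adjusted p = 0.059 by limma). THRB passed in 5 of 15 alternatives, with limma-voom on the recovered fragments (adjusted p = 0.027), a pseudocount of 1, the length correction, and without oeSTUB1 replicate 1 or replicate 2, with log2 fold changes between -0.81 and -0.33 in these 5. THRA, the more abundant thyroid hormone receptor, stood at 8.52 to 9.21 FPKM in oeNC and 6.16 to 8.16 FPKM in oeSTUB1 (log2 fold change -0.28, adjusted p = 0.16 by limma). NR1D1 (REV-ERB alpha), a repressor of the circadian clock, stood at 4.59, 4.27 and 6.25 FPKM in oeNC and at 3.09, 3.00 and 3.99 FPKM in oeSTUB1 (log2 fold change -0.56, adjusted p = 0.072 by limma). NR1D1 and THRA lie on opposite strands and share 263 exonic bases, so reads there cannot be assigned without strand. NR1D2 (REV-ERB beta) overlapped, at 6.58 to 9.30 FPKM in oeNC and 6.65 to 8.53 FPKM in oeSTUB1. PPARA, a fatty acid receptor, stood at 1.18, 1.4 and 1.28 FPKM in oeNC and at 0.858, 0.407 and 1.01 FPKM in oeSTUB1 (log2 fold change -0.76, 95% interval -1.42 to -0.11, adjusted p = 0.12 by limma), with oeSTUB1 replicate 2 lowest by far. PPARG stood at 5.15 to 5.62 FPKM in oeNC and 6.04 to 6.09 FPKM in oeSTUB1 (log2 fold change 0.17, adjusted p = 0.22 by limma). NR2F1 (COUP-TFI) stood at 5.93 to 6.26 FPKM in oeNC and 6.45 to 8.12 FPKM in oeSTUB1 (log2 fold change 0.26, adjusted p = 0.14 by limma).

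The remaining expressed receptors overlapped between groups. The testicular receptors NR2C1 and NR2C2 had log2 fold changes of 0.01 (95% interval -0.18 to 0.20) and -0.29 (-0.72 to 0.15). PPARD (0.01, interval -0.31 to 0.34) and HNF4G (0.10, interval -0.33 to 0.53) likewise did not pass the test. Of the low receptors, NR3C2, NR4A3 and NR6A1 had intervals of -1.0 to 0.65, -0.33 to 0.65 and -0.69 to 0.46, and no difference was detectable in them at this depth.

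Of the 8 tested receptors with a gene length of at least 8000 bases in the FPKM calculation, 7 were lower in replicate 2 than in the mean of replicates 1 and 3, with a median log2 difference of -0.62. The difference was -1.03 for PPARA, -0.81 for NR6A1, -0.78 for NR3C2, -0.71 for NR2C2, -0.54 for THRB, -0.49 for NR3C1 and -0.20 for NR5A2. Over the 22 shorter receptors the median was -0.09, and NR2F6, at +0.43, was the highest of the 30. Without oeSTUB1 replicate 2, 3 receptors were higher and 5 lower. NR5A2 then had a log2 fold change of 1.49 and NR1H4 one of -1.39.

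**Figure D4:**
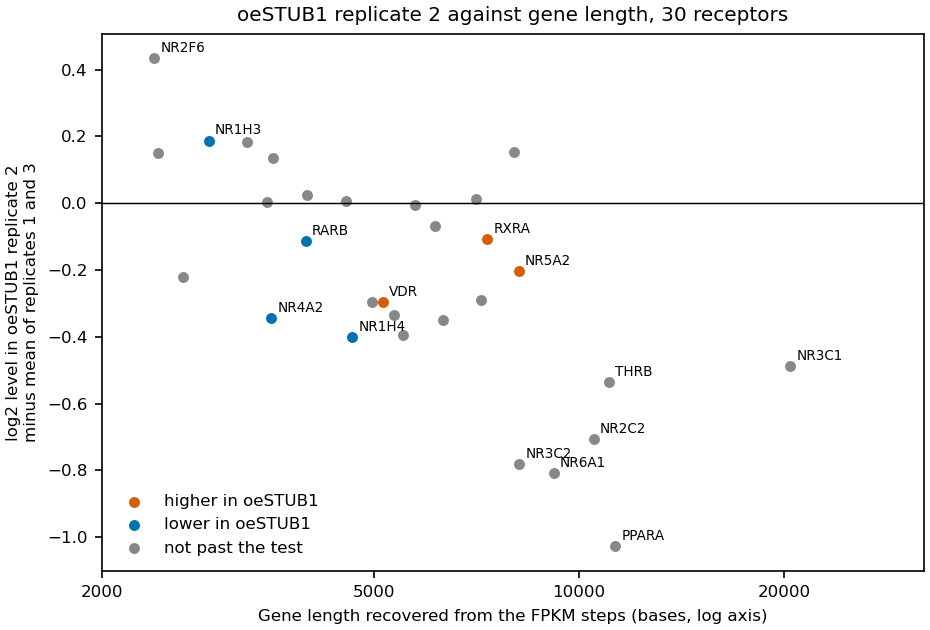
Log2 difference between oeSTUB1 replicate 2 and the mean of oeSTUB1 replicates 1 and 3 for the 30 tested receptors (y axis), against the gene length recovered from the FPKM steps in bases on a log axis (x axis). The 6 lowest receptors, from NR3C1 at -0.49 to PPARA at -1.03, are all longer than 8000 bases, and NR2F6 lies highest at 0.43.

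Receptors depend on enzymes, carriers and transporters that supply or remove their ligands. Of 28 such genes, listed with earlier results of these data known, 26 had a row and 19 were tested. By limma 4 rose and 4 fell (42.1% of the 19), where 7.01% of all tested genes were higher and 6.59% lower, and the median log2 fold change was 0.02. The part of the choice of genes in the 42.1% was not tested. For retinoids, CYP26B1, which degrades retinoic acid, fell from 9.65, 10.7 and 11.8 FPKM in oeNC to 4.58, 3.98 and 4.80 FPKM in oeSTUB1 (log2 fold change -1.25, adjusted p = 0.00052 by limma). RDH10, which makes retinaldehyde from retinol, fell from a mean of 18.5 to 12.7 FPKM (log2 fold change -0.56, adjusted p = 0.028 by limma). The retinol transporter STRA6 rose from 9.30 to 13.4 FPKM (0.53, adjusted p = 0.0094 by limma), and CRABP2, which carries retinoic acid to the nucleus, from 0.496 to 1.62 FPKM (1.55, adjusted p = 0.019 by limma). ALDH1A1, a retinaldehyde dehydrogenase, was very abundant at 3702 to 3871 FPKM in oeNC and 4503 to 5105 FPKM in oeSTUB1, without passing the test (adjusted p = 0.17 by limma).

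For thyroid hormone, DIO2, the deiodinase that activates the hormone, stood at 0.206, 0.270 and 0.360 FPKM in oeNC and at 2.60, 2.34 and 1.83 FPKM in oeSTUB1. All oeSTUB1 values were above all oeNC values, and the log2 fold change was 2.64 (SE 0.21, adjusted p = 0.00029 by limma). CYP24A1, which inactivates vitamin D and is also a target of VDR, was abundant and fell from 426, 461 and 563 FPKM to 362, 298 and 361 FPKM (log2 fold change -0.50, adjusted p = 0.046 by limma). HSD11B2, which inactivates cortisol, fell from 0.661 to 0.273 FPKM (-1.08, adjusted p = 0.037 by limma).

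Of 72 textbook receptor target genes, also listed with earlier results of these data known, 65 had a row and 52 were tested. By limma 6 rose and 10 fell (30.8% of the 52), beside 7.01% higher and 6.59% lower over all tested genes. The part of the choice of genes in the 30.8% was not tested. The median log2 fold change was -0.12, with 33 of 52 negative. ABCB1, the drug efflux pump and a target of PXR, fell from 4.63, 4.40 and 4.41 FPKM to 0.521, 0.327 and 0.485 FPKM (log2 fold change -3.09, adjusted p = 7.9e-05 by limma). PXR itself was not expressed in either group, and the cause of the fall in ABCB1 was not tested. SLC51B, a subunit of the bile acid exporter and a target of FXR, fell from 4.67, 3.50 and 5.26 FPKM to 1.44, 2.34 and 2.07 FPKM (-1.17, adjusted p = 0.010 by limma). It was the 1 tested gene of the 6 listed for FXR and SHP.

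Among 6 tested LXR targets, 2 rose. They were the cholesterol exporter ABCA1 (0.628, 0.632 and 0.703 FPKM in oeNC, 1.92, 1.06 and 1.89 FPKM in oeSTUB1, log2 fold change 1.15, adjusted p = 0.015 by limma) and the phospholipid enzyme LPCAT3 (0.32, adjusted p = 0.033 by limma). ABCG1, another LXR target, had a log2 fold change of -0.61 and did not pass (adjusted p = 0.086 by limma). Among 6 tested PPAR targets, PDK4, a brake on glucose oxidation, fell from 158, 161 and 217 FPKM to 58.5, 52.2 and 75.3 FPKM (-1.53, adjusted p = 0.0012 by limma), ANGPTL4, an inhibitor of lipoprotein lipase, fell (-0.53, adjusted p = 0.039 by limma) and PLIN2, a lipid droplet coat protein, rose (0.69, adjusted p = 0.0045 by limma).

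Of the 6 tested RAR targets, RARRES1 rose from 1.45, 1.26 and 1.59 FPKM to 3.02, 3.65 and 5.49 FPKM (1.4, adjusted p = 0.0051 by limma). TGM2, a transglutaminase, also rose (0.69, adjusted p = 0.0023 by limma). Of 7 tested targets of the glucocorticoid and mineralocorticoid receptors, all had negative log2 fold changes, beside 7270 of all 15353 tested genes. For TSC22D3 this sign rested on oeNC replicate 3 (1.97, 2.12 and 6.22 FPKM in oeNC, 2.76, 3.13 and 2.59 FPKM in oeSTUB1). Of the 7, 2 passed, FKBP5, a cochaperone of steroid receptors (-0.55, adjusted p = 0.027 by limma), and the kinase SGK1 (-0.59, adjusted p = 0.0067 by limma). Of 13 tested clock genes, HLF (-1.33, adjusted p = 0.0023 by limma) and NPAS2 (-0.48, adjusted p = 0.023 by limma) fell. The mitochondrial enzyme IDH3A, an ERR target, rose (0.26, adjusted p = 0.048 by limma).

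**Figure D5:**
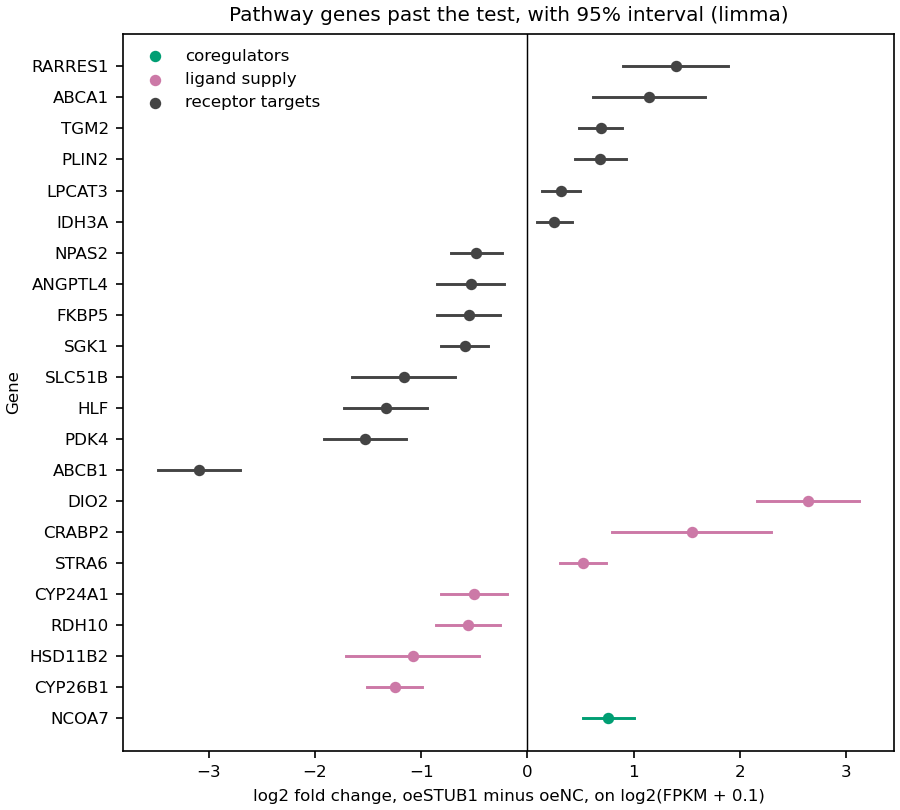
Log2 fold change of oeSTUB1 against oeNC on log2(FPKM + 0.1), with the 95% interval from limma, for genes past the test among coregulators, ligand supply genes and receptor targets. DIO2 lies highest at 2.64 and ABCB1 lowest at -3.09; CYP24A1 is in both of the last lists and is drawn once, under ligand supply.

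Coregulators bridge receptors to chromatin. All 21 on the list were tested, and 1 rose while 0 fell by limma, with 2 lower at an unadjusted p under 0.05 and 0 lower by limma-voom. That is 4.76% of the 21, where 7.01% of all tested genes were higher and 6.59% lower. NCOA7, a coactivator, rose from 14.1, 14.9 and 17.0 FPKM to 26.6, 23.6 and 28.2 FPKM (0.76, adjusted p = 0.0030 by limma). Of the 21, 16 had negative values, with a median of -0.24. Many of these genes are long, and oeSTUB1 replicate 2 was the low library in them, as for EP300, at 16.2, 6.02 and 15.2 FPKM in oeSTUB1 replicates 1, 2 and 3 against 14.2 to 16.1 FPKM in oeNC. The part of that library in the median was not tested, and without it 3 coregulators were higher and 2 lower.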

How the data were processed

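The 6 libraries, 3 oeNC and 3 oeSTUB1, were grouped by their titles. The table deposited by the authors gives FPKM for 23569 gene symbols. The submitters' processing notes name fastp 0.20.1, HISAT2 2.1.0, HTSeq 0.11.2, R 3.2.0, DESeq2 1.22.2 and the build GRCh38.p13, and the annotation and strand setting are not given in the sources used here. Fragment numbers were recovered from the FPKM steps and came out whole for 23569 genes (100.0%, tolerance 0.001 fragments), and FPKM computed back from them deviated from the table by up to 1.1e-04. They may be understated where all 6 share a divisor. The gene lengths behind the FPKM could not be checked against the annotation used.

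The groups were compared on log2(FPKM + 0.1) by limma 3.58.1 (R 4.3.3, lmFit, then eBayes with trend, two-sided), over the 15353 genes averaging at least 0.1 FPKM, with Benjamini-Hochberg adjustment over all of them. The pseudocount compresses the changes of low genes. Intervals are 95% intervals of this fit. In simulated data limma called 200 of 200 genes changed 4-fold, among 15305 tested, and 12 unchanged genes. The simulation changed only genes averaging at least 1 FPKM, gave all genes the same spread and held no library drifting with gene length. It therefore cannot show how often smaller changes, such as those of most receptors called here, were missed or wrongly called. The 36 receptors, the lists of coregulators, ligand supply genes, targets and markers, and the alternatives were chosen with earlier results of these data known. Every receptor with an adjusted p under 0.05 and the 6 most abundant others were named with their values in each library. Other genes named were those of the lists that passed the test, some of which are not reported here, and any further gene was chosen after its values were seen. Receptors were matched to RefSeq promoters (GRCh38.p14) by symbol, 31 of 36, and NR0B2, NR2F6, NR4A2, VDR and HNF4G had no entry. Gene lengths and overlaps were set beside GENCODE release 29. The alternatives changed the pseudocount (1 or 0.01), the filter (none, or 1 FPKM), the scaling (median ratio or quantile), the eBayes trend, the use of a replicate block, the input (limma-voom on the recovered fragments) or the libraries, each left out in turn. A lowess correction for gene length was chosen after seeing the data. Other steps used Python 3.11.15.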

Additional observations from a re-analysis of the deposited data

How the results depend on the processing

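Of the 7 receptor calls, NR5A2 kept its call in 16 of 16 alternatives (log2 fold change 1.24 to 1.49) and NR1H4 in 15 of 15 (-1.71 to -0.78). The others kept it less often, RARB in 14 of 16, RXRA in 9 of 16, VDR in 8 of 15, NR4A2 in 7 of 16 and NR1H3 in 6 of 16, and none of these 7 changed sign. Receptors lower numbered 2 with a pseudocount of 0.01, with no filter, with a filter at 1 FPKM and with no trend, and 8 with the length correction, which added NR1D1, THRA, THRB and PPARA. With a log2 fold change beyond 1, 0 receptors were lower with a pseudocount of 1 and with the filter at 1 FPKM, which NR1H4 does not pass. Over all genes the length correction gave 1675 higher and 1647 lower. It gave 1 coregulator lower. Ligand supply genes lower numbered 1 with no filter and 2 with no trend. Leaving out single libraries gave 1 to 3 receptors higher and 1 to 5 lower, with 1 higher and 1 lower beyond 2-fold each time. The same gave 477 to 2274 genes higher and 456 to 1838 lower over all genes, 1 to 3 coregulators higher and 0 to 2 lower, 2 to 7 ligand supply genes higher and 1 to 5 lower, and 3 to 9 targets higher and 5 to 11 lower. The upper end of each range came without oeSTUB1 replicate 2. Samples with the same replicate number did not deviate together (correlations of -0.05, -0.05 and 0.06). With few libraries per group, and oeSTUB1 replicate 2 drifting with gene length, these correlations cannot show whether the samples were paired. With the replicate block 1 receptor was higher (NR5A2) and 2 ligand supply genes were lower, NR1H3 lost its call and NR1D1 gained one. The causes of these moves were not tested, and the filter and the left-out libraries change the number of genes or samples by construction. Calls of receptors near 1 FPKM rest on fewer fragments than those of abundant receptors, 56 to 89 per oeSTUB1 library for NR1H4. A median-ratio scaling moved the median log2 fold change of all genes from 0.02 to -0.01.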

Other observations

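A further 12 receptors of the family, which complete the human set of 48, stood outside the list of 36. Of these, 11 had a row (RXRG had none) and 5 were tested. By limma 4 of the 5 fell, beside 6.59% of all tested genes lower and 7.01% higher, and 1, NR2E3, did not pass. None was higher by limma or limma-voom, or at an unadjusted p under 0.05. The genes below were named after their values were seen. HNF4A, a master regulator of hepatocyte and enterocyte genes, fell from 11.1, 11.3 and 10.1 FPKM in oeNC replicates 1, 2 and 3 to 5.44, 4.30 and 5.87 FPKM in oeSTUB1 replicates 1, 2 and 3 (log2 fold change -1.05, adjusted p = 0.0018 by limma). HNF4G, its close relative among the 36, did not pass the test (0.10, 95% interval -0.33 to 0.53). NR0B1 (DAX1), a receptor without a DNA-binding domain, fell from 15.2, 14.2 and 14.3 FPKM to 6.31, 9.53 and 7.04 FPKM (-0.95, adjusted p = 0.0054 by limma), whereas NR0B2, the other such receptor, was not expressed. ESR2 and PGR, like ESR1, did not pass 0.0808 FPKM in any library.

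In retinoid supply the genes moved in both directions within one pathway. The transporter STRA6 and the carrier CRABP2 were higher, and the enzymes RDH10 and CYP26B1 lower, while RARB fell and RARRES1 and TGM2 rose. In the thyroid hormone group DIO2 rose, and neither of the 2 tested targets passed the test by limma (median log2 fold change -0.25).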
